A study of Mus musculus with 4 samples.

Results

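The peaks described here are those of a GFP-tagged Tbx20 protein in the adult mouse heart that lay around 9 genes of the sarcomere and its Z-disc. Tbx20 belongs to the T-box family of transcription factors and is required both to form the heart and to keep adult heart muscle working. A peak was a member when its midpoint fell within 1 of 8 windows on the mm9 build, which surround Ldb3, Actn2, Ttn, Tnnt2, Tpm1, Mybpc3, Actc1 and the neighbouring pair Myh6 and Myh7. This rule found 18 of the 4012 deposited peaks, and all 18 are described below. The windows were selected on the peak list itself, that is, chosen by a rule made with the positions and scores of its peaks known, so their counts, spacing, widths and scores are given as a description without a test.

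The peaks came from chromatin immunoprecipitation followed by sequencing (ChIP-seq), in which an antibody recovers a protein together with the DNA it occupies, and a peak is a place where the sequenced reads pile up above a control. The 1 immunoprecipitate was made with a goat antibody against GFP from the whole heart of 2-month-old CD1 mice in which Tbx20 was fused to GFP; how the fusion was introduced is not given in the sources used here. The control was DNA of whole heart input, of which the labels list 3 samples, also from CD1 mice: inputs 1 and 2 at E11.5 and input 3 at E9.5, so the control hearts were labelled as embryonic and the immunoprecipitated ones as adult. No input values were used here, and with 1 immunoprecipitate the variation between animals cannot be estimated. A whole heart holds several cell types, so the cells in which Tbx20 occupied these places cannot be told apart.

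The sarcomere is the contractile unit of heart muscle, in which thick filaments of myosin pull on thin filaments of actin. Thin filaments are anchored at the Z-disc, where alpha-actinin crosslinks them and where LIM and PDZ domain proteins hold the lattice together. Titin spans from the Z-disc to the middle of the sarcomere as a molecular spring, and troponin and tropomyosin make contraction depend on calcium. Variants of many of these genes cause cardiomyopathy in people.

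The sequence of the peaks themselves was not used here. To show the DNA at the genes in question, stretches ahead of annotated transcription start sites were taken from RefSeq (build GRCm38.p6). Their positions are on that build and cannot be set beside the mm9 positions of the peaks, and none of the peaks was matched to them. Shown are Ldb3 and Actn2, whose windows held the most peaks, and Mybpc3, whose promoter was the only one of the 9 genes to hold the T-box core GGTGTGA. Each is written 5′ to 3′ on the strand of its gene, with capitals for a match to one of the motifs named in the next paragraph. The Mybpc3 stretch was cut to 220 bases so that it stops before the outermost annotated start of the gene. Its T-box core is counted from a later start, the one in the promoter table.
Ldb3 (GRCm38.p6, chr14:34588682-34588931, minus strand): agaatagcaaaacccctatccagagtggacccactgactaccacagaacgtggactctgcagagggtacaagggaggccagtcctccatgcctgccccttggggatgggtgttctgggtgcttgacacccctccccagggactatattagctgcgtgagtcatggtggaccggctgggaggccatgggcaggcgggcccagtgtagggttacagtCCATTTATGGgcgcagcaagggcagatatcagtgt
Actn2 (GRCm38.p6, chr13:12340733-12340982, minus strand): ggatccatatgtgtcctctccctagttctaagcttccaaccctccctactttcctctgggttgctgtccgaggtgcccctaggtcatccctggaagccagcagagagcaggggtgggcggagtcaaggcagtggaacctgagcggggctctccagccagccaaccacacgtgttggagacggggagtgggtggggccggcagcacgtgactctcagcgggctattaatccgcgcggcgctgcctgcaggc
Mybpc3 (GRCm38.p6, chr2:91117894-91118113, plus strand): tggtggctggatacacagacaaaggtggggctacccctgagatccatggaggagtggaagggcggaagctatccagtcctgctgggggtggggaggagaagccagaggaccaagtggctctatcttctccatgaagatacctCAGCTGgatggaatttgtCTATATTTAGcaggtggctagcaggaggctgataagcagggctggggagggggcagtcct
Mybpc3, site of the T-box core 32 bases into the annotated transcript (GRCm38.p6, chr2:91118165-91118191, plus strand): cttgatgcctGGTGTGActgttctcaa

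All 9 genes matched the RefSeq promoter table by symbol. For each annotated start it holds 250 bases before and 50 bases after the start. Each motif was searched on both strands, and a gene counted when any of its starts held a match. The full T-box motif AGGTGTGA was in none of the 9 genes, against 1.48% of all 27025 genes in the table. The shorter core GGTGTGA, which lies within the full motif, was in 1 of 9 (Mybpc3) against 4.60%. The MEF2 motif was in 3 of 9 (Ldb3, Ttn and Mybpc3) against 4.23%, and the CArG box of serum response factor in 2 of 9 (Ldb3 and Actc1) against 1.81%. The TEAD motif GGAATG was in 5 of 9 (Ttn, Myh6, Myh7, Tnnt2 and Tpm1) against 16.6%, the E-box CAGCTG in 2 of 9 (Tnnt2 and Mybpc3) against 18.3%, and the GATA motif AGATAA in 1 of 9 (Tnnt2) against 12.7%. No member matched the ERR motif AAGGTCA or the CRE motif TGACGTCA, which 5.38% and 2.03% of all genes held. The Actn2 stretch printed above therefore has no capitals. Ldb3 has 2 annotated starts, and its MEF2 match lies past the end of the stretch printed for 1 of them. These matches describe letters in short windows and carry no reading of where Tbx20 was bound.

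The 18 peaks were unevenly shared among the windows. The windows of Ldb3 and Actn2, both genes of Z-disc proteins, held 6 peaks each. The window of Tnnt2 held 2, those of Ttn, Mybpc3 and Actc1 and the shared window of Myh6 and Myh7 held 1 each, and that of Tpm1 held 0. Thus 7 of the 8 windows held a peak. Since the windows were selected on these peaks, the shares that follow are given for scale only. When the autosomes were divided into stretches of the lengths of these windows, the share of stretches with at least 1 peak was 14.9% at 110 kb (Mybpc3, Actc1), 16% at 120 kb (Tnnt2), 17.1% at 130 kb (Tpm1), 20.4% at 160 kb (Ldb3, Myh6 and Myh7), 35% at 330 kb (Actn2) and 38.5% at 380 kb (Ttn).

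**Figure D1:**
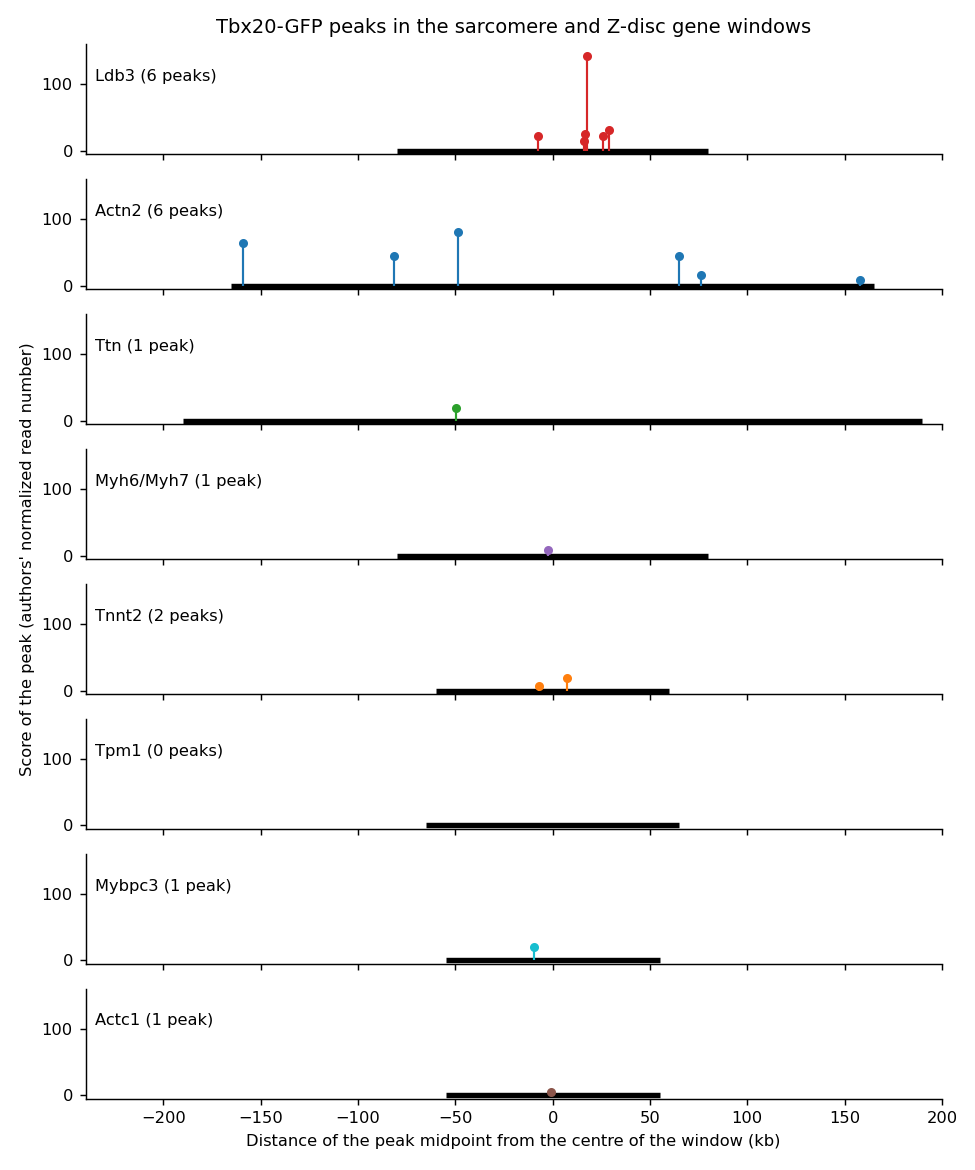
Score of each Tbx20-GFP peak (vertical axis, the authors' normalized read number) against the distance of its midpoint from the centre of its window in kb (horizontal axis), with 1 panel per window and the window drawn as a black bar. The 6 Ldb3 peaks lie within 36.4 kb, the 6 Actn2 peaks are spread over 317 kb, and the Tpm1 panel is empty.

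Together the windows covered 1.5 Mb and held 12.0 peaks per Mb (exact 95% Poisson interval 7.11 to 19.0, for counting error only). The autosomes as a whole held 1.67 peaks per Mb, measured over the stretch that peaks span on each chromosome, so 2.51 peaks would fall in the windows at that density, and the ratio was 7.18 (4.25 to 11.3). Ldb3 and Actn2 carried most of this. Their windows held 12 peaks in 0.49 Mb, or 24.5 per Mb (12.7 to 42.8), 14.6 times the autosomal density. In the other 6 windows there were 6 peaks in 1.01 Mb, or 5.94 per Mb (2.18 to 12.9), 3.55 times that density (1.30 to 7.73). The stretches of the same length directly before and after the windows held 8 peaks, or 2.67 per Mb. Per length, the order of the windows was Ldb3 (37.5 peaks per Mb), Actn2 (18.2), Tnnt2 (16.7), Mybpc3 and Actc1 (9.09 each), Myh6 and Myh7 (6.25), Ttn (2.63) and Tpm1 (0). Where windows held 1 peak each, this order only follows their set lengths, from 110 kb (Mybpc3, Actc1) through 160 kb (Myh6 and Myh7) to 380 kb (Ttn). The window was 1.36 times as long as the gene at Ttn and 19.7 times at Actc1. The intervals of neighbours in this order overlap throughout, and those of windows with 1 or 2 peaks are wide, such as 2.02 to 60.2 at Tnnt2 and 0.230 to 50.7 at Mybpc3. Since the windows were selected on these same peaks, the intervals show how few peaks stand behind each density and are no comparison with the autosomes.

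**Figure D2:**
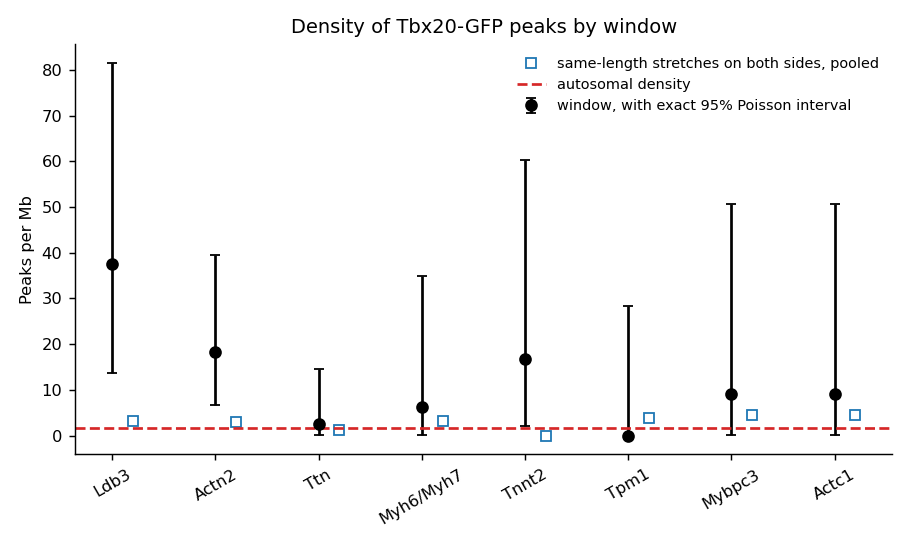
Peaks per Mb in each window (black points, with exact 95% Poisson intervals), in the same-length stretches on both sides pooled (open squares) and over the autosomes (dashed line). Densities run from 0 at Tpm1 to 37.5 peaks per Mb at Ldb3, with wide intervals that overlap between neighbours in that order; the line, at 1.67, is drawn for scale, since the windows were selected on these peaks.

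Ldb3, also called Cypher or ZASP, encodes a PDZ and LIM domain protein that binds alpha-actinin at the Z-disc. Its window, on chromosome 14 from 35.29 to 35.45 Mb, held the strongest of the 18 peaks. This peak ran from 35387353 to 35387727, was 374 bp wide and scored 142.7, which ranked 22nd of the 4012 scores. It was flanked closely on 1 side by another that scored 24.7, from 35386636 to 35386953, which ended 400 bp before it. A further peak that scored 14.8, from 35386250 to 35386486, ended 150 bp before that one. These 3 peaks became 1 when peaks within 500 bp were merged, and the Ldb3 count then went from 6 to 4. The merged interval kept the score of 142.7 and was 1477 bp wide.

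The remaining Ldb3 peaks lay on both sides of this group. On the lower-coordinate side the peak from 35362547 to 35362936 scored 22.6 and was 23.6 kb from its nearest neighbour. On the other side the peak from 35395802 to 35396141 scored 22.2. Next to it, with midpoints 2.86 kb apart, the peak from 35398743 to 35398922 scored 30.8. Apart from the peak at 142.7, the scores of the locus lay between 14.8 and 30.8. All 6 peaks fell within 36.4 kb, a stretch shorter than the 63.6 kb of the Ldb3 gene in RefSeq (GRCm38.p6), so they would fit inside the gene, but this was not matched on mm9. On GRCm38.p6 a stretch as long as the window and centred on Ldb3 overlaps 3 other protein-coding genes, so these peaks, too, cannot be assigned to Ldb3 by position alone. Of the autosomal stretches of 160 kb, 0.027% held 6 or more peaks, counted before merging. This share is given for scale only, since the window was selected on these peaks. The nearest peak before the window lay 75.5 kb from its edge (score 17.1), and the next peak after it was 5322 kb away.

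Actn2 encodes alpha-actinin, the protein that crosslinks actin filaments at the Z-disc and that Ldb3 binds. Its window, on chromosome 13 from 12.22 to 12.55 Mb, held 6 peaks as well, but they were spread over 317 kb. The peak from 12336308 to 12336556 scored 79.9 and stood at place 5 of the deposited list. A peak from 12225710 to 12226072 scored 63.3 and stood at place 92. Peaks from 12303387 to 12303734 and from 12450064 to 12450231 had scores of 44.4 and 44.0. The lowest scores were 16.4, for the peak from 12461248 to 12461591, and 8.68, for the peak from 12542930 to 12543100. Scores at Actn2 therefore covered a wide range with no single dominant peak, and 4 of the 6 were among the 2006 better-scoring peaks of the list.

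Spacing separated the Actn2 peaks from those of Ldb3. Successive midpoints at Actn2 were 77.7, 32.9, 113.7, 11.3 and 81.6 kb apart, with a median of 77.7 kb, against a median of 2.86 kb at Ldb3. The Ldb3 median includes gaps of 0.4265 and 0.7455 kb inside the group that merging joined, and it was not computed after merging. No Actn2 peak had another peak within 10 kb, whereas 5 of the 6 Ldb3 peaks did. The Actn2 gene is 71.3 kb long in RefSeq (GRCm38.p6), and no more than 2 of the 6 peaks fit into any stretch of that length. At least 4 of them therefore lay outside the gene, if its length on mm9 is similar. On GRCm38.p6, a stretch as long as the window and centred on Actn2 overlaps 3 other protein-coding genes, so these peaks cannot be assigned to Actn2 by position alone. In autosomal stretches of 330 kb, 0.125% held 6 or more peaks, again given for scale only, since the window was selected on these peaks. The window edges divided peaks here: the outermost members lay 5.89 kb and 6.99 kb inside the edges, and the next peaks lay 44.2 kb before the window (score 11.7) and 7.83 kb after it (score 19.6).

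Ttn encodes titin. Its window was the longest, 380 kb on chromosome 2 from 76.49 to 76.87 Mb, and held 1 peak, from 76630281 to 76630474, with a width of 193 bp and a score of 19.2. At the autosomal density 0.635 peaks would be expected, a ratio of 1.57 with a wide interval (0.0398 to 8.77) from this 1 peak. On GRCm38.p6 a stretch as long as the window and centred on Ttn overlaps 4 other protein-coding genes. The nearest peak outside, 166 kb before the window, scored 62.0. The midpoints of these peaks were 306 kb apart.

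The windows of the thick filament genes each held 1 wide peak. Its score was low at Myh6 and Myh7 and near the autosomal median at Mybpc3. Myh6 and Myh7 encode the alpha and beta myosin heavy chains, the main motor proteins of the adult mouse ventricle and of the fetal ventricle respectively. Their shared window on chromosome 14, from 55.51 to 55.67 Mb, held 1 peak, from 55587090 to 55587676. It was 586 bp wide, the 90th widest of the list, and scored 7.98. Mybpc3 encodes cardiac myosin-binding protein C, which tunes the interaction of myosin with actin. Its window on chromosome 2, from 90.91 to 91.02 Mb, held 1 peak, from 90955035 to 90955572, that was 537 bp wide and scored 20.9. Of the autosomal peaks, 97.8% were narrower than the peak at the myosin genes and 96.8% were narrower than that at Mybpc3. On GRCm38.p6 a stretch as long as the window overlaps 8 other protein-coding genes when centred on Myh6, 6 when centred on Myh7 and 2 when centred on Mybpc3.

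The windows of the thin filament genes held 3 peaks among them. Tnnt2 encodes cardiac troponin T, which ties the troponin complex to tropomyosin. Its window on chromosome 1, from 137.68 to 137.80 Mb, held 2 peaks. That from 137732772 to 137733088 scored 6.12, and that from 137747408 to 137747635 scored 19.2. Their midpoints were 14.6 kb apart, less than the 15.95 kb length of the gene in RefSeq (GRCm38.p6). A stretch as long as the window and centred on Tnnt2 on that build overlaps 3 other protein-coding genes, so the peaks cannot be assigned to it either. Of the autosomal stretches of 120 kb, 3.12% held 2 or more peaks, which is no comparison, since the window was selected on these peaks. Actc1 encodes the cardiac alpha-actin of the thin filament. Its window on chromosome 2, from 113.82 to 113.93 Mb, held 1 peak, from 113873818 to 113874032, with the lowest score of the 18, 5.47. On GRCm38.p6 a stretch as long as this window and centred on Actc1 overlaps 2 other protein-coding genes.

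Tpm1 encodes alpha-tropomyosin, which lies along the actin filament and blocks myosin binding at rest. Its window on chromosome 9, from 66.82 to 66.95 Mb, held no listed peak, where 0.217 would be expected at the autosomal density. The list holds accepted peaks alone, so binding below the caller's thresholds was not measured. The closest listed peak lay 61.8 kb after the window and scored 17.3, and the closest before it lay 176 kb away and scored 96.6. At Tnnt2 the nearest peak before the window, 225 kb from its edge, scored 153.8. Both of these strong peaks lay farther from the edge than the windows are long (130 kb at Tpm1, 120 kb at Tnnt2), so they are not assigned to these loci. At the windows other than Tpm1 and Tnnt2, the nearest peaks outside scored from 4.34 to 62.0, both at Ttn.

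Scores of the 18 peaks had a median of 21.5 and ran from 5.47 to 142.7, and the autosomal peaks outside the windows had a median of 22.9. The 2 medians lay close together, although single windows ranged in median from 5.47 at Actc1 to 44.2 at Actn2. Of the 18, 7 (38.9%, exact Clopper-Pearson 95% interval 17.3 to 64.3%) were among the 2006 better-scoring peaks, to which 50.3% of autosomal peaks belonged. All 7 lay at Ldb3 (3) and Actn2 (4). The 6 peaks of the other windows scored at most 20.9, with a median of 13.6, and none of the 6 was among the better-scoring ones. Scores of at least 60 were found at 3 of the 18 peaks, 1 at Ldb3 and 2 at Actn2. That is 16.7% (3.58 to 41.4%), against 7.05% of autosomal peaks. Scores under 10 were found at 4 of the 18, or 22.2% (6.41 to 47.6%), close to the 20.4% of autosomal peaks. The intervals of shares given here and below show counting error only. Because the windows were selected on these peaks, they are no comparison with the autosomal shares.

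**Figure D3:**
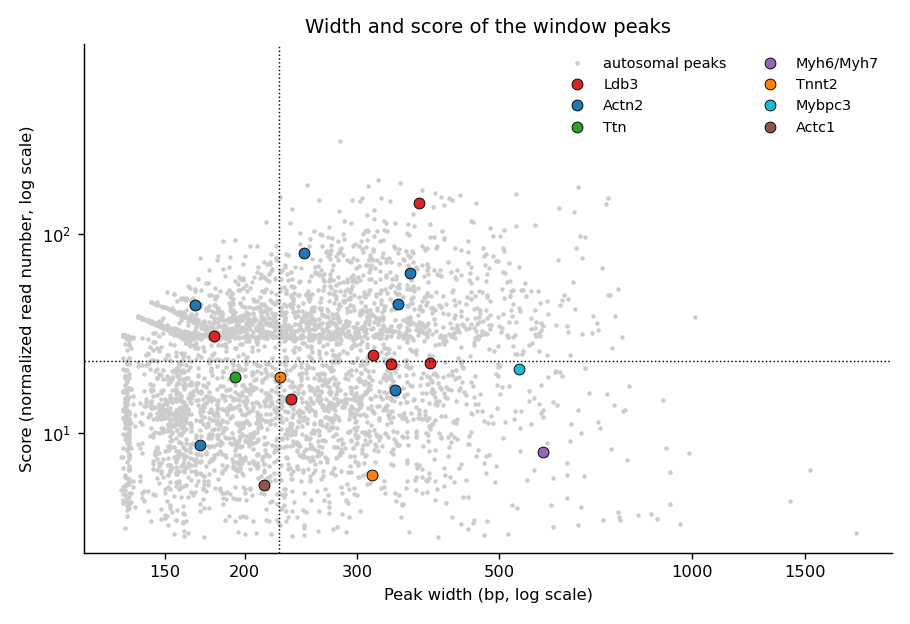
Score (vertical axis, normalized read number, log scale) against width in bp (horizontal axis, log scale) for autosomal peaks (grey) and the 18 window peaks coloured by gene, with dotted lines at the autosomal medians. The peaks at Myh6 and Myh7 (586 bp) and Mybpc3 (537 bp) lie far to the right with scores under the median, and the top coloured point is the Ldb3 peak at 142.7.

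The median width of the 18 peaks was 316.5 bp, with a range of 167 to 586 bp, against 225 bp for the autosomal peaks outside the windows. In all 13 of the 18 (72.2%, exact interval 46.5 to 90.3%) were wider than the autosomal median of 226 bp, which 49.7% of autosomal peaks exceed. Of the 13, 1 at Tnnt2 was wider by a single base pair, and the interval is no comparison with the autosomal share. The widths at Ldb3 ran from 179 to 389 bp and those at Actn2 from 167 to 362 bp.

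Place in the deposited list, whose order differs from that of the scores, gave a further description of the peaks. The ceiling of a peak is the highest score among it and all peaks listed after it, so it bounds every score and never rises along the list by construction. Scores at most 2% below this bound were taken as at the ceiling. The members at the ceiling numbered 3, the Ldb3 peak scored 30.8 and the Actn2 peaks scored 44.4 and 44.0, that is 16.7% (3.58 to 41.4%) against 36.3% of autosomal peaks. Some members placed high in the list lay below it: the Actn2 peak at place 5 reached 43.0% of its ceiling, the Ldb3 peak at place 26 reached 89.4% and the Actn2 peak at place 92 reached 50.1%. These were the members among the first 100 places, 3 of 18 against 2.47% of autosomal peaks. The first 2006 places held 14 of the 18 members (77.8%, exact interval 52.4 to 93.6%), against 49.8% of autosomal peaks. That is 14 members by place beside the 7 among as many peaks by score. The peaks at Actc1, Tnnt2 (the weaker) and Myh6 and Myh7 reached 16.98%, 15.9% and 19.7% of their ceilings.

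**Figure D4:**
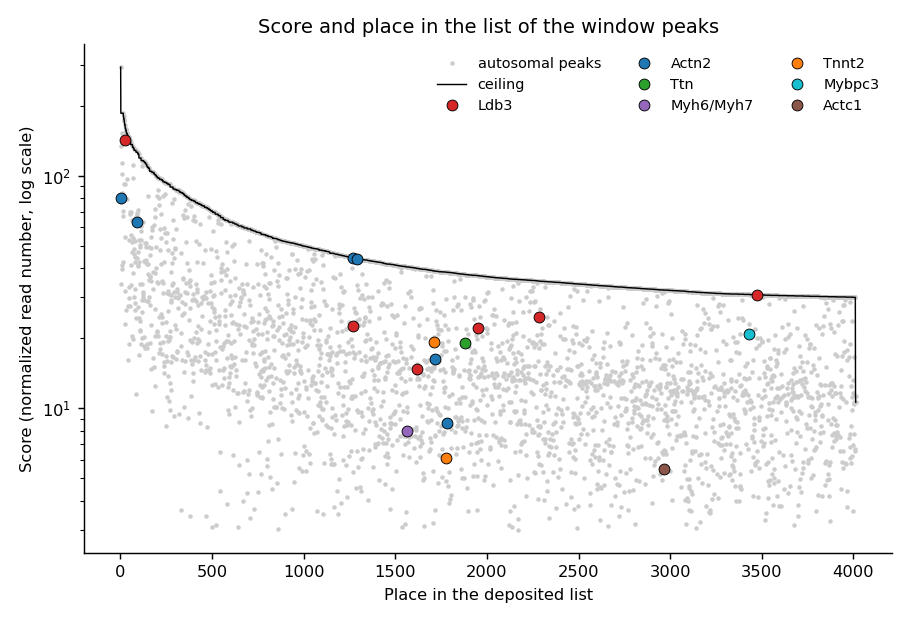
Score (vertical axis, normalized read number, log scale) against place in the deposited list (horizontal axis) for autosomal peaks (grey) and the 18 window peaks coloured by gene, with the ceiling as a black line. Of the coloured points, 3 lie on the line, 14 lie in the first 2006 places, and the 3 among the first 100 places belong to Ldb3 and Actn2.

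Isolation also differed between the loci. Another peak lay within 10 kb of 5 of the 18 members (27.8%, exact interval 9.69 to 53.5%), all at Ldb3, against 11.1% of autosomal peaks. Merging peaks within 500 bp, which joins close Ldb3 peaks, lowered the share to 18.75%, and the autosomal share was not computed after merging. Without the Ldb3 window the count before merging was 0 of 12. The nearest peak lay at a median distance of 14.7 kb for the 18 and 111.6 kb for the autosomal peaks outside the windows. In the 6 windows other than Ldb3 and Actn2 it was 149.9 kb, longer than in the rest of the list, but over 6 peaks only. Their distances ran from 14.6 kb at both Tnnt2 peaks to 306 kb at Ttn.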

How the data were processed

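Per the deposited note, the authors called the peaks with QuEST and deposited as score the normalized read number of each peak (the field ef), with the divisor not stated, so scores were compared only within this list. Coordinates are printed as the authors deposited them on mm9, the build named by the submitters' processing notes, and may count starts from 0. Aligner, thresholds and pooling of inputs were not stated, and read depth is unknown. Intervals cover counting error of peaks only and treat peaks as independent.

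Peaks were assigned to 8 windows by midpoint. Autosomal density and background stretches ran from the first peak of an autosome to its last. Members, windows, ceiling and motifs were chosen with earlier results of these data known. The named items were the 9 genes with every peak in their windows. RefSeq (GRCm38.p6) gave gene lengths and neighbours, and placed all 9 genes on the chromosome of their window. A count over a wider list of sarcomere genes needs mm9 positions and was not run. As a check of the counting code only, counts planted in the windows were recovered in 20 of 20 simulated lists of about 4012 peaks. This carries no information on the real counts. Alternatives are given in the closing section. Tools were Python (3.11.15) and its packages pandas (2.3.3), numpy (2.4.6), matplotlib (3.10.9) and scipy (1.17.1).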

Additional observations from a re-analysis of the deposited data

How the results depend on the processing

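Keeping the 2006 better-scoring peaks cut the 18 peaks to 7 and raised their median score to 44.4, both in part by construction, and the density ratio was then 5.45. The ratio stayed between 5.20 (windows extended by 50 kb on both sides) and 10.9 (the first 2006 peaks listed) under every alternative run. The count was 14 among the first 2006 listed, 16 after merging within 500 bp, 20 with extended and 16 with shortened windows, and 18 by overlap. The share with a neighbour was 72.2% at 50 kb, against 31.8% of autosomal peaks. All of these members lay at Ldb3, Actn2 and Tnnt2, the windows that held more than 1 peak. The peaks of the windows with 1 peak had their nearest neighbour 144.6 to 306.5 kb away. The windows were selected on these peaks, so the 2 shares are no comparison. Leaving out each window in turn gave 12 to 18 peaks, a ratio of 5.36 to 9.08, a median score of 19.2 to 22.4, a median width of 282 to 328 bp and a share with a neighbour within 10 kb of 0 to 41.7%, where 0 is the value without Ldb3. No paired analysis was possible because 1 immunoprecipitate has values and no test was made.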
